A study of Mus musculus with 72 samples.

Results

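A set of 7 genes of cholesterol synthesis and its control were followed in the liver and lung of irradiated mice. They are Hmgcs1, Idi1, Fdft1, Sqle and Lss, which encode 5 enzymes of the route from acetyl-CoA to sterols, and Insig1 and Srebf2, which encode regulators of that route. Members were all array probes, control probes left out, whose transcript accession maps to 1 of these gene symbols. This gave 10 probes of 56605, of which 34566 mapped to a gene symbol, and 7 of the 23787 genes with a probe. Lss had 3 probes, Fdft1 had 2 and each other gene had 1. The brightest probe stands for each gene below, except for the genes ranked by likeness to the members. For the members, the text says where another probe differed. Genes of the other lists are given by their brightest probe only, and their other probes were not compared.

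The animals were female C57BL/6 J mice, 6 to 8 weeks old, that received X-rays to the whole body at 1.05 Gy/min in plastic containers. Doses were 12, 8, 4, 2 and 1 Gy. Control animals (0 Gy) were sham irradiated in the same kind of container. Liver and lung were taken 48 h later from 3 mice per dose, which gave 18 liver and 18 lung mRNA arrays of 1 colour, and as many miRNA arrays. The mice carried no transgene or drug by the labels, and each array held total RNA of a whole organ, so that fewer cells of a type and less RNA per cell cannot be told apart. Mice are named by the sample numbers of the labels, which liver and lung share without a statement that they came from the same animal. These are 1, 11 and 21 at 0 Gy, 2, 12 and 22 at 1 Gy, 3, 13 and 23 at 2 Gy, 4, 14 and 24 at 4 Gy, 5, 15 and 25 at 8 Gy, and 6, 16 and 26 at 12 Gy. Values are log2 of normalised intensity, and a difference of 1 on this scale is a 2-fold difference.

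Between 46.1% and 54.0% of spots on a liver array and between 54.1% and 64.0% on a lung array were well above background, no spot was saturated, and all 10 member probes were well above background on all 36 arrays. Precision is limited by the 3 arrays per dose. All arrays came from 5 slides. Slide 1 held liver at 0 and 1 Gy with 2 Gy mice 3 and 13, slide 2 held liver from 2 Gy mouse 23 to 12 Gy mouse 6, slide 3 held liver 12 Gy mice 16 and 26 with lung at 0 and 1 Gy, slide 4 held lung at 2 and 4 Gy with 8 Gy mice 5 and 15, and slide 5 held lung 8 Gy mouse 25 with 12 Gy. In lung, 1 Gy shared its slide with 0 Gy, and at 2 Gy and above dose and slide cannot be told apart in the contrasts with 0 Gy. In liver, 0 Gy was on slide 1 and 4 and 8 Gy wholly on slide 2, so that only the 2 Gy mice link these doses to 0 Gy. Results with the slide in the model are given for the members only, and calls for the other gene lists come from models without it. The hepatocyte markers (Alb, Apoa1, Ttr, Serpina1a, Cps1, Ahsg, Fgb and Hpx) were well above background for 8 of 8 genes on every liver array. The alveolar and airway markers (Sftpc, Sftpb, Sftpd, Scgb1a1, Ager, Cldn18, Lamp3 and Foxj1) were so for 8 of 8 on every lung array. The hepatocyte markers were also detected in lung, 4 to 8 of 8 genes per array, with a mean level between 6.06 and 12.73, highest in 4 Gy mouse 24.

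Animal cells build cholesterol from acetyl-CoA through mevalonate, isoprenoids, squalene and lanosterol. Hmgcs1 condenses acetyl units to HMG-CoA in the cytosol, Idi1 isomerizes the first isoprenoid, Fdft1 joins farnesyl units to squalene, and Sqle and Lss turn squalene into lanosterol. Srebf2 encodes SREBP2, a membrane-bound transcription factor that is carried to the Golgi and cleaved when sterols are low and then switches on the genes of the route. Insig1 encodes the endoplasmic reticulum protein that holds SREBP2 back when sterols are plentiful, and is itself a target of SREBP factors. The liver is a main site of this synthesis. SREBP1, encoded by Srebf1, drives mainly fatty acid synthesis and follows insulin and feeding.

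RefSeq promoter entries (GRCm38.p6) were found for 5 of the 7 genes, and Sqle and Fdft1 had no entry in the table used. SREBP binds sterol regulatory elements together with NF-Y at CCAAT boxes and Sp1 at GC boxes, so these letters were searched on both strands from 250 bases before to 50 after each start. The sterol element core TCACNCCAC was in 1 of the 5, Hmgcs1, at base -137, and in 1.24% of 32851 promoters of the table. CCAAT was in 5 of 5 and in 37.4% of all, and GGGCGG was in 5 of 5 and in 35.7% of all. The absence of the core in the other windows says only that these exact letters are not there. The 250 bases upstream of 3 genes are shown because their liver levels followed each other in different degree. Capitals mark CCAAT on either strand, read ATTGG where it lies on the other strand, and the sterol element core in Hmgcs1. The windows are chr13:119690101-119690350 for Hmgcs1, chr13:8885356-8885605 for Idi1 and chr15:82147019-82147268 for Srebf2, all on the + strand.
Hmgcs1 upstream: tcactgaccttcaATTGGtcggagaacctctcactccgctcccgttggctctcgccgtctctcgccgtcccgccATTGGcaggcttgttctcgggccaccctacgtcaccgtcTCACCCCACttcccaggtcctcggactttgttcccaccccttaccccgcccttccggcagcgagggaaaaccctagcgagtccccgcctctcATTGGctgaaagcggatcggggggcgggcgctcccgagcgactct
Idi1 upstream: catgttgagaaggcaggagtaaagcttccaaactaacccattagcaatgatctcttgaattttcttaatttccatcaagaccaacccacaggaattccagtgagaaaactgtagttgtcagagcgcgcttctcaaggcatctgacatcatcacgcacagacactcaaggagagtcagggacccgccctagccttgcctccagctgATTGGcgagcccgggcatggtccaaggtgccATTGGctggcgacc
Srebf2 upstream: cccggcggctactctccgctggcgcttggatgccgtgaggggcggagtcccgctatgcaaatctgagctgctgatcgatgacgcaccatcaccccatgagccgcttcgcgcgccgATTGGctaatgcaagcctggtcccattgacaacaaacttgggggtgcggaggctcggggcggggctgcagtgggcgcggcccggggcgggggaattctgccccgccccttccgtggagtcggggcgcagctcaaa

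Unirradiated liver held more mRNA of the 5 enzymes and of Insig1 than unirradiated lung, while Srebf2 did not differ beyond its spread. For this comparison the 36 arrays were normalized together, and all adjusted p values below come from limma with the Benjamini-Hochberg method over all probes tested in the comparison, with n = 3 mice per group. A probe is said to pass at an adjusted p below 0.05. A total of 9 of 10 member probes were lower in lung and passed, and 52.8% of 47376 probes passed in either direction. Insig1 stood at 12.97 ± 0.17 in liver and 9.98 ± 0.39 in lung (SD), which is 7.95-fold lower in lung (log2 difference -2.99, SE 0.25, adjusted p = 4.07e-11). Hmgcs1, at 15.72 to 15.88 in the 3 livers and 14.00 to 14.09 in the 3 lungs, was 3.39-fold lower in lung. Idi1 was 3.92-fold lower, Fdft1 3.89-fold, Sqle 2.62-fold and Lss 2.30-fold, with adjusted p values between 2.22e-08 and 0.00229. The groups did not overlap for any of these. The other Fdft1 probe gave 5.09-fold, and the other Lss probes gave 5.30-fold and 6.70-fold, so that the direction was shared and the size for Lss depended on the probe. Srebf2 lay between 9.83 and 10.11 in liver and between 9.82 and 10.96 in lung, overlapping groups with a log2 difference of 0.43 (SE 0.24, adjusted p = 0.148). Without number 21 of 0 Gy the difference of Srebf2 passed (0.65, adjusted p = 0.0491), and with the slide as a fixed term it turned to -0.30 (adjusted p = 0.725). The other 9 probes passed with the slide as a fixed term too, Hmgcs1 then at -2.98 (adjusted p = 9.55e-04).

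**Figure D1:**
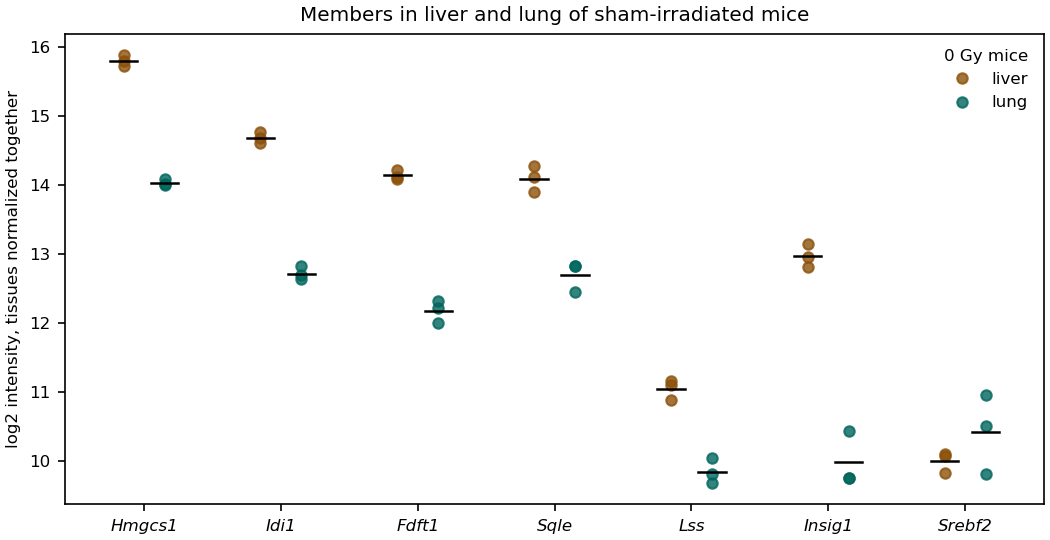
Log2 normalised intensity of the 7 genes in the 3 livers and 3 lungs at 0 Gy, with the 36 arrays normalized together. Each point is a mouse, and the bars are means. Liver lies above lung for Hmgcs1, Idi1, Fdft1, Sqle, Lss and Insig1, and the groups overlap for Srebf2.

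In liver, none of the 10 member probes passed at any dose or on the linear dose trend (limma, n = 3 mice per dose). Of 38362 probes, 0.0417% passed at 1 Gy, 0.461% at 2 Gy, 3.31% at 4 Gy, 9.9% at 8 Gy and 7.01% at 12 Gy, and 9.51% passed on the trend, which is the fitted log2 change over 12 Gy. At an unadjusted p below 0.05 there were 0 of 10 member probes at each dose and 3 of 10 on the trend. Of all 38362 probes, 8986 were below it on the trend. In order of rising dose, 2716, 4528, 6946, 9667 and 7848 were below it at the single doses. The 6 genes other than Srebf2 had negative fitted changes at 8 Gy, 12 Gy and on the trend, none of which passed. The 3 mice lay below the 3 controls for 1 of 10 member probes at 8 Gy (Insig1) and 1 of 10 at 12 Gy (Idi1). Here and in lung, the share of all probes that separate from the controls in this way was not computed, so such separations are descriptions only. Without 8 Gy mouse 5, 2 probes passed, Idi1 at 8 Gy (-1.30, adjusted p = 0.0485) and a secondary Lss probe at 8 Gy (-1.57, adjusted p = 0.0465), and Idi1 passed on the trend (-1.03, adjusted p = 0.0394). The median of the 7 genes was -0.50 at 8 Gy, -0.08 at 12 Gy and -0.39 on the trend.

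Hmgcs1, the first enzyme committed to HMG-CoA, stood at 15.49, 15.56 and 15.66 in the 0 Gy livers. Its values were 16.16, 14.90 and 14.14 in 8 Gy mice 5, 15 and 25, and 14.02, 15.52 and 15.31 in 12 Gy mice 6, 16 and 26. The 8 Gy group therefore held the highest liver value of Hmgcs1 among the 18 mice and nearly the lowest, on both sides of the controls. The change at 8 Gy was -0.50 (SE 0.43, adjusted p = 0.502), at 12 Gy -0.62 (SE 0.43, adjusted p = 0.464), and on the trend -0.75 (SE 0.32, adjusted p = 0.154).

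Idi1, the isomerase of the isoprenoid step, was at 14.56, 14.63 and 14.49 at 0 Gy. It reached 15.26 in mouse 5 and lay under the controls in mice 15 and 25 at 13.73 and 12.80, and it stood at 13.00, 14.32 and 14.24 at 12 Gy. The 3 livers at 12 Gy were all below the 3 controls, while the 8 Gy livers lay on both sides. Its trend of -0.86 (SE 0.35, adjusted p = 0.138) had the largest size of the 7 genes. The spot of 2 Gy mouse 3 was an outlier for the scanner software, so that this dose rests on 2 mice.

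Sqle, the epoxidase that makes squalene epoxide, had the largest SD of the 7 genes at 8 and 12 Gy. It measured 14.01, 14.17 and 13.78 at 0 Gy, 14.58, 13.08 and 11.97 in 8 Gy mice 5, 15 and 25, and 12.18, 14.13 and 13.73 in 12 Gy mice 6, 16 and 26. Mice of the same dose thus differed by up to 6.13-fold at 8 Gy and 3.85-fold at 12 Gy, against 1.31-fold at 0 Gy. Its fitted change at 8 Gy was -0.78 with an SE of 0.52 (adjusted p = 0.386).

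Fdft1, the squalene synthase, ranged from 13.99 to 14.12 at 0 Gy, and stood at 14.06, 13.48 and 12.97 at 8 Gy and 13.34, 14.44 and 14.29 at 12 Gy. Lss, which closes the ring to lanosterol, ranged from 10.39 to 10.69 at 0 Gy, and stood at 11.15, 10.19 and 9.57 at 8 Gy and 9.76, 11.18 and 10.76 at 12 Gy. In both genes mouse 5 was the highest and mouse 25 the lowest of the 8 Gy group, and mouse 6 was the lowest at 12 Gy. The changes at 12 Gy were -0.02 for Fdft1 (adjusted p = 0.988) and -0.0019 for Lss (adjusted p = 0.999), with mice above and below the controls in both. The other Lss probes had trends of -0.53 and -0.58 (adjusted p = 0.487 and 0.127) beside -0.22 for the main probe (adjusted p = 0.690).

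Insig1 lay at 12.54, 12.92 and 12.72 at 0 Gy. All 3 livers at 1 Gy were higher (13.25, 13.38 and 13.11) and all 3 at 8 Gy were lower (12.24, 12.45 and 11.99), but neither change passed, with 0.52 (SE 0.28, adjusted p = 0.764) at 1 Gy and -0.50 (SE 0.28, adjusted p = 0.293) at 8 Gy. The 8 Gy change turned to 0.37 when the model also held the slide (adjusted p = 0.674). Unlike the enzymes, Insig1 was not highest in mouse 5 at 8 Gy. Srebf2 was the member with a positive trend, 0.40 (SE 0.21, adjusted p = 0.264), which turned to -0.37 with the slide in the model (SE 0.36, adjusted p = 0.716). Its livers lay between 9.25 and 9.55 at 0 Gy, at 10.04, 9.17 and 9.15 at 8 Gy and at 9.31, 10.12 and 10.22 at 12 Gy. The 12 Gy change of 0.45 (SE 0.26, adjusted p = 0.374) came with mouse 6 inside the control range and mice 16 and 26 above it.

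**Figure D2:**
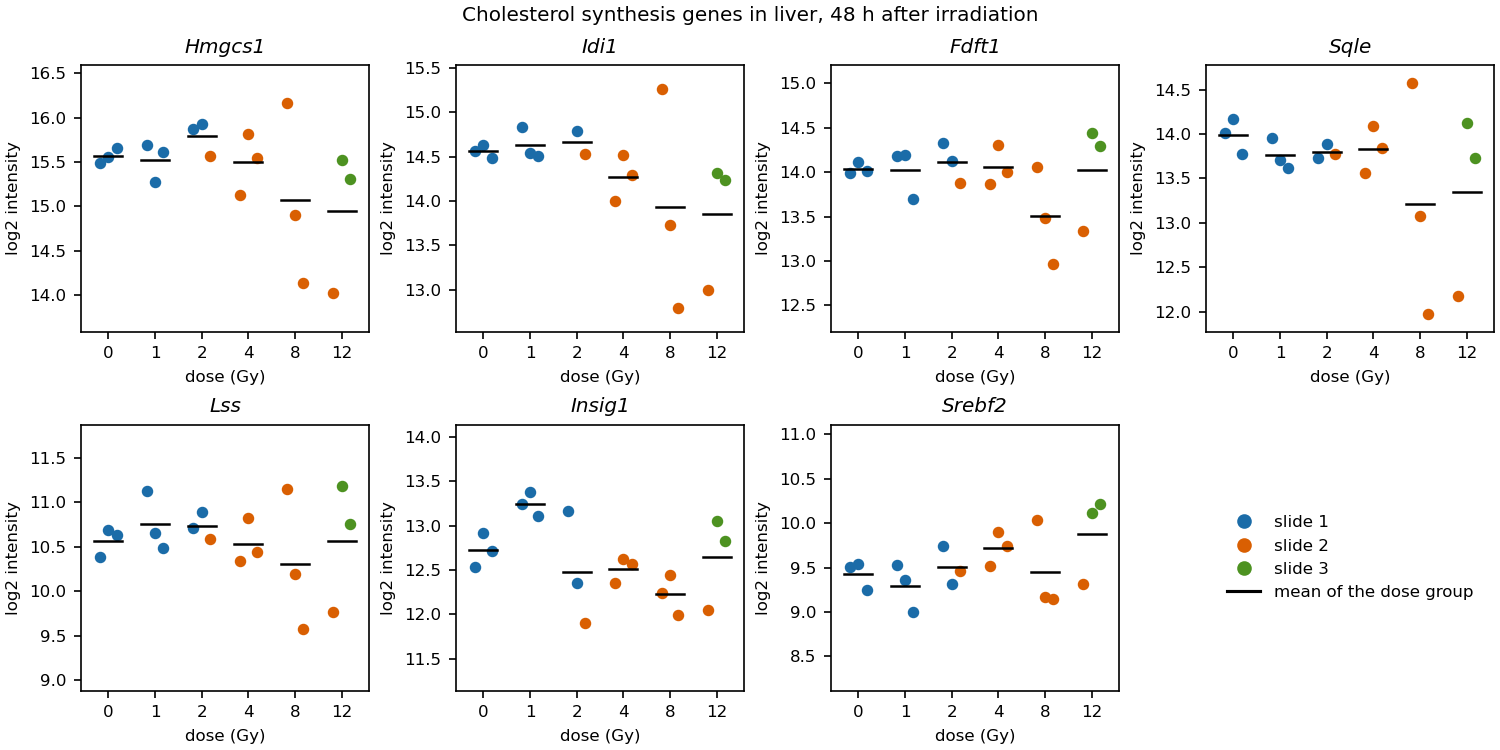
Log2 normalised intensity of each of the 7 genes in the 18 livers by dose in Gy; each point is a mouse coloured by array slide, and the bars are group means. The 8 and 12 Gy mice spread over a wide range, for Sqle from 11.97 to 14.58 at 8 Gy, around controls at 13.78 to 14.17.

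The spread between livers of a dose was larger at 8 and 12 Gy than below for most member probes. Insig1 had its largest SD at 2 Gy (0.646), with 0.527 at 12 Gy. The second Lss probe had an SD of 0.848 at 1 Gy and 0.570 at 12 Gy. The other member probes had larger SDs at 8 and 12 Gy than at any lower dose. The 8 Gy livers shared slide 2. At 12 Gy mouse 6 was on slide 2 and mice 16 and 26 on slide 3, so that mouse and slide cannot be told apart there. The 2 Gy livers were also split, between slides 1 and 2. The median SD of the 7 genes was 0.154 at 0 Gy, 0.222 at 1 Gy, 0.189 at 2 Gy and 0.256 at 4 Gy, and it was 0.794 at 8 Gy and 0.728 at 12 Gy. Over all tested probes the median SD was 0.166 at 0 Gy, 0.227 at 8 Gy and 0.200 at 12 Gy. Among the 10 member probes, the median share of all probes with a smaller SD was 47.4% at 0 Gy, 94.4% at 8 Gy and 93.7% at 12 Gy. The SD of Sqle at 8 Gy was 1.31, of Idi1 1.24 and of Hmgcs1 1.02, while Insig1 had 0.23, near the median of all probes. This is a description of 3 mice per group, and no test of the spread was run. The SE of a probe in the dose contrasts was pooled over all doses. The wide spread at 8 and 12 Gy therefore also entered the tests at the lower doses.

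The same mice were high or low for most members. At 8 Gy, mouse 5 was the highest of its group for 9 of 10 probes and mouse 25 the lowest for 9 of 10. At 12 Gy, mouse 6, on slide 2 where mice 16 and 26 were on slide 3, was the lowest for 10 of 10. At 4 Gy, with smaller differences, mouse 14 was the highest and mouse 4 the lowest for 10 of 10. Of the 7 genes, mouse 25 had 7 below the 0 Gy mean, with a median difference of -1.07, and mouse 6 had 7 below, with a median of -0.81. Mouse 5 had 1 of 7 below, with a median of 0.59. Mouse 15 lay between, with 7 of 7 below and a median of -0.56.

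Across the 18 livers the 5 enzymes followed each other closely. Their 10 pairs had Pearson correlations from 0.795 to 0.966 with a median of 0.886, and Spearman correlations from 0.50 to 0.858 with a median of 0.708. In permutation tests of 100000 draws, two-sided and adjusted over the 42 pairs computed in both tissues, 10 of 10 passed by Pearson (largest adjusted p = 0.00217) and 8 of 10 by Spearman. The draws took no account of dose or slide. For these pairs, those with a regulator and those in lung, the share of other gene pairs that pass was not computed. With each dose's mean subtracted, the median was 0.945. This value pools all doses and rests most on those with the widest spread between livers, given above. It therefore does not show that the relation held at each dose. Leaving out the 2 mice farthest from the median of the gene on the x axis lowered the median to 0.708, with a range from 0.400 to 0.894. Within slide 1, which held 0 to 2 Gy, the median was 0.437 (-0.013 to 0.881), and within slide 2 it was 0.979 (0.889 to 0.990). All genes of a mouse share an array, and thus its labelling and normalization.

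The pairs that include a regulator had lower correlations over the 18 livers, and the difference between the sets of pairs was not tested. The 11 pairs that include Insig1 or Srebf2 had a median Pearson correlation of 0.435 (0.162 to 0.677) and a median Spearman correlation of 0.325. Of these, 4 of 11 passed by either coefficient (largest adjusted p = 0.573), and 2 extreme mice left out gave a median of 0.243. With each dose's mean subtracted, the median was 0.709. The regulators then stood apart from each other, with 0.813 to 0.900 for Srebf2 with the 5 enzymes and 0.460 to 0.709 for Insig1 with them.

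**Figure D3:**
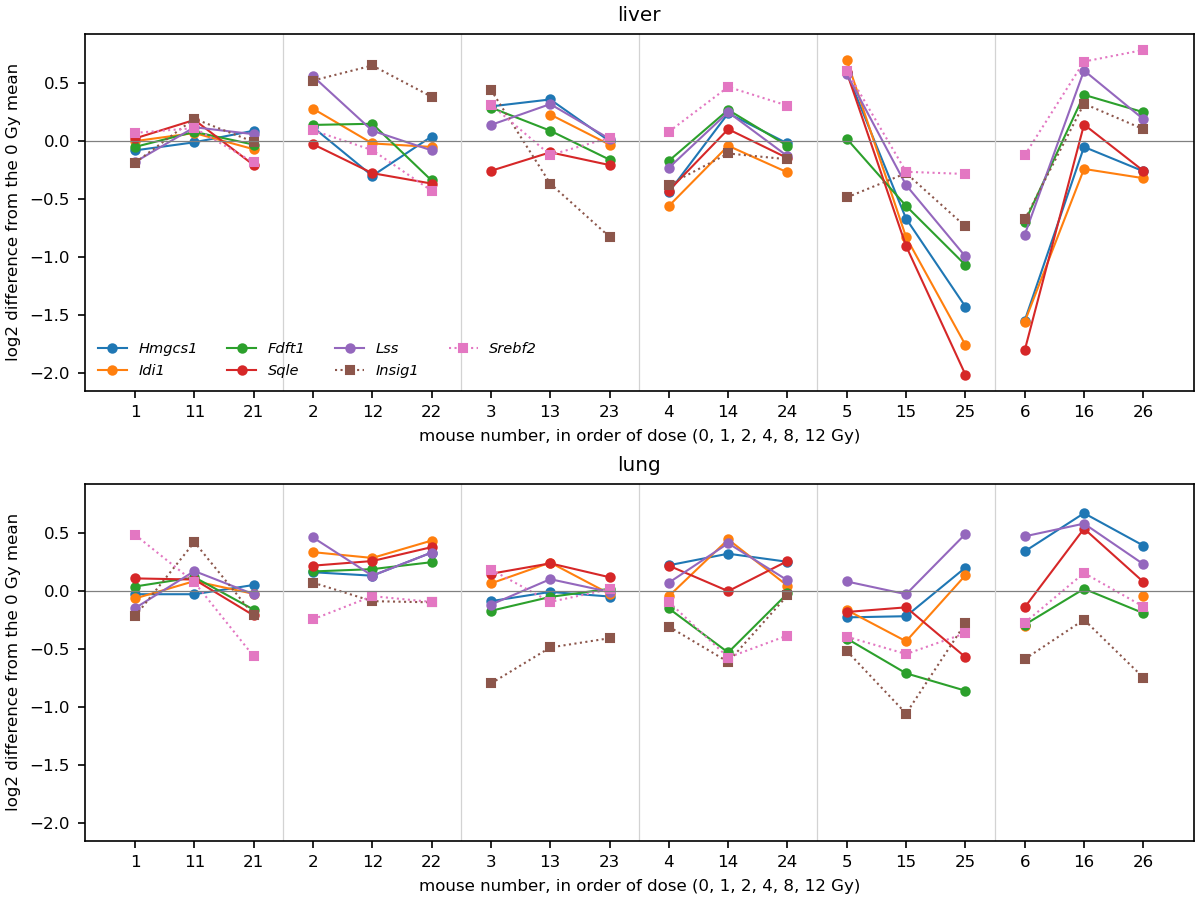
Difference from the 0 Gy mean (log2) of each gene in each liver, 1 line per gene, with mice ordered by dose and then by number. The 5 enzymes rise and dip in the same mice, upward in 8 Gy mouse 5 and downward in 8 Gy mouse 25 and 12 Gy mouse 6.

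The genes whose liver pattern was most like that of the members included several further enzymes of the route. Likeness was the Pearson correlation over 18 livers with the mean of the scaled members, for 17690 other symbols, whose median was 0.090 and 99th percentile 0.628. In liver and in lung, each symbol was ranked by its probe with the highest correlation, which favours symbols with several probes. The highest were Mvd (0.932), Msmo1 (0.901), Cyp51 (0.891) and Tlcd2 (0.884), and 1 further gene of the leading 5 is not reported here. Mvd is the mevalonate diphosphate decarboxylase, and Msmo1 and Cyp51 act on lanosterol and its products. Of 14 other sterol pathway enzymes, 8 were among the 20 most alike and 10 among the 100 most alike, and Ggps1, which feeds isoprenoids to protein prenylation rather than to sterols, had a correlation of 0.0024. Of 15 genes of the SREBP1 lipogenic list, 1 was among the 20 and 2 among the 100. These are descriptions with no test, over arrays that share their processing.

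The further enzymes of the mevalonate and sterol route showed the same mice apart, and some passed as lower with dose in a model without the slide. The list included Acat2, Mvk, Pmvk, Mvd, Fdps, Ggps1, Cyp51, Tm7sf2, Msmo1, Nsdhl, Hsd17b7, Ebp, Sc5d and Dhcr7. Of the whole list 14 were tested and Acat2 had no mapped probe. Their mean level lay between 13.18 and 13.29 in the 0 Gy livers. It was 13.47, 12.74 and 12.18 in 8 Gy mice 5, 15 and 25, and 12.12, 13.18 and 12.95 in 12 Gy mice 6, 16 and 26. Mice 25 and 6 again lay lowest, with 13 of 14 genes under the 0 Gy mean in each. None of the 14 rose at any dose, and 2 of 14 passed as lower at 8 Gy and again at 12 Gy, where 9.9% and 7.01% of all probes passed in either direction. These were Tm7sf2 and Sc5d, both late sterol enzymes (at 12 Gy -0.91, adjusted p = 0.0183, and -0.82, adjusted p = 0.0119). On the trend, where 9.51% of all probes passed, 5 of 14 fell, with Fdps, the farnesyl diphosphate synthase, at -1.24 (SE 0.33, adjusted p = 0.0204), Sc5d at -0.95, Tm7sf2 at -0.83, Dhcr7 at -0.80 and Ebp at -0.37. The median trend of the list was -0.75, and that of all tested probes was 0.0038.

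Of the 15 SREBP1 lipogenic genes, 8 fell with dose in liver in a model without the slide. The mean level of the list in mouse 5 lay below the controls as in the other 8 Gy livers. On the trend 0 of 15 rose and 8 fell, while 9.51% of all probes passed in either direction. Those that fell were Elovl6 (-1.84, adjusted p = 7.73e-04), Fasn (-1.57, adjusted p = 0.00221), Srebf1 itself (-1.48, SE 0.22, adjusted p = 3.47e-04), Scd1 (-1.40), Acly (-1.29), Thrsp (-1.08), Acss2 (-0.88) and Acaca (-0.81), with a median of -0.88 for the list. Srebf1 was at 15.16, 15.13 and 14.63 at 0 Gy and at 13.49, 13.85 and 13.50 at 8 Gy, so that the 3 mice lay together where Srebf2 and the sterol enzymes did not. The mean of this list was 13.24 to 13.61 at 0 Gy, 12.89, 12.78 and 12.58 in mice 5, 15 and 25, and 12.50, 12.87 and 12.78 in mice 6, 16 and 26. In mouse 5, 12 of 15 lipogenic genes and 4 of 14 sterol enzymes lay below the 0 Gy mean. The difference between the lists was not tested.

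Of the 4 genes of SREBP processing (Scap, Insig2, Mbtps1 and Mbtps2), 0 passed at any dose or on the trend, with a median trend of 0.12. Of 14 tested genes of sterol transport, esterification and LXR, 2 rose on the trend, Abcg5 (0.53, adjusted p = 0.0171), which exports sterols to bile, and Lcat (0.31, adjusted p = 0.0347). Stard4 (-0.68, adjusted p = 0.0261), a sterol carrier and SREBP2 target, and Abcg1 (-0.55, adjusted p = 0.0247) fell. Abcg5 was also higher at 4, 8 and 12 Gy, at 8 Gy by 0.71 (SE 0.10, adjusted p = 9.79e-04). Of 6 bile acid genes, Nr1h4 rose on the trend (0.35, adjusted p = 0.0235) and the others did not pass. Over the whole list of 40 further pathway genes, 38 were tested in liver, and 3 rose and 7 fell on the trend, against 9.51% of all probes in either direction.

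When the liver model also held the slide, 0 of 10 member probes passed at any dose or on the trend. The fitted trends were then negative for 10 of 10 probes, from -1.94 to -0.19, with a smallest adjusted p of 0.224. Within slide 1, over 0 to 2 Gy, the fitted slopes were negative for 3 of 10 probes, and within slide 2, over 2 to 12 Gy, for 10 of 10. Among livers the macrophage marker mean moved with dose, from between 11.97 and 12.14 at 0 Gy to between 11.42 and 11.53 at 12 Gy, with 7 of 8 genes passing as lower at 12 Gy. The B cell marker mean went from between 6.16 and 6.53 to between 4.90 and 5.04, and the T cell marker mean from between 6.61 and 6.90 to between 5.65 and 5.89, with 4 of 7 tested genes lower in each. The part of these markers in the results was not tested. The hepatocyte marker mean lay between 17.68 and 17.85 in all 18 livers. In the comparison of neighbouring doses in liver, 0 of 10 member probes passed between 1 and 2, 2 and 4, 4 and 8, or 8 and 12 Gy. Of all probes, 0%, 0%, 0.00521% and 0% passed. Unadjusted p was below 0.05 for 1, 0, 0 and 0 member probes, and for 3995, 4130, 4041 and 3752 of 38362 probes.

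In lung the members changed in different directions, and few passed. Of up to 43979 probes, 0.025% passed against 0 Gy at 1 Gy, 0.555% at 2 Gy, 2.18% at 4 Gy, 4.25% at 8 Gy and 21.4% at 12 Gy, and 30.7% passed on the trend. Of 10 member probes, 0 passed at 1, 2 and 4 Gy, 1 was lower at 8 Gy (Fdft1), 1 was higher and 1 lower at 12 Gy (Hmgcs1 and an Lss probe), and 1 was lower on the trend (the same Lss probe). At an unadjusted p below 0.05 there were 5 member probes on the trend and, in order of rising dose, 0, 1, 0, 2 and 4 at the single doses. Of up to 43979 probes, 18198 were below it on the trend. At the single doses 2426, 3371, 6122, 7204 and 15515 were below it. The median change of all tested probes was 0.094 at 12 Gy and 0.080 on the trend.

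Hmgcs1 was at 14.11, 14.11 and 14.19 in the 0 Gy lungs and at 14.48, 14.81 and 14.53 in 12 Gy mice 6, 16 and 26, groups that did not overlap. It rose by 0.47 at 12 Gy (SE 0.14, adjusted p = 0.0269). In between it showed no steady course, with 14.30, 14.27 and 14.47 at 1 Gy, 14.05, 14.13 and 14.09 at 2 Gy, 14.36, 14.46 and 14.39 at 4 Gy, and 13.91, 13.92 and 14.34 at 8 Gy. All 3 lungs at 1 Gy and all 3 at 4 Gy lay above the controls too, those at 2 Gy and 8 Gy did not, and the trend of 0.28 did not pass (SE 0.15, adjusted p = 0.176) and was -0.09 with the slide as a fixed term. The call at 12 Gy was lost with the slide as a random block (0.41, adjusted p = 0.229), with both tissues normalized together (0.46, adjusted p = 0.385), and without any 1 of 0 Gy mice 1, 11 and 21 or 12 Gy mouse 16.

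Fdft1 was at 12.59, 12.67 and 12.39 in the 0 Gy lungs and at 12.14, 11.84 and 11.69 at 8 Gy, and fell by 0.66 (SE 0.16, adjusted p = 0.0272). At 12 Gy it stood at 12.26, 12.57 and 12.36, with a change of -0.15 (adjusted p = 0.536). The other Fdft1 probe was at 11.61 to 12.06 at 0 Gy and 11.60 to 11.93 at 8 Gy and did not share the change (-0.01, SE 0.17, adjusted p = 0.990). The call was lost under 6 other ways of processing. The change was -0.16 with the authors' series values, -0.32 with the scanner software's processed signal, -0.33 with probes averaged, -0.53 with scaling to the 75th percentile, -0.67 with the slide as a random block and -0.73 with both tissues together. It was also lost without any 1 of 0 Gy mice 1 and 11 and 8 Gy mice 15 and 25 (-0.64 to -0.56). The trend of Fdft1 passed without 12 Gy mouse 16 (-0.59, adjusted p = 0.0309).

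The 3 Lss probes, all to the same transcript, disagreed in lung. The main probe was at 10.28, 10.60 and 10.40 at 0 Gy and 10.90, 11.01 and 10.66 at 12 Gy, all 3 above the controls, with a change of 0.43 that did not pass (SE 0.17, adjusted p = 0.0820) but passed without 8 Gy mouse 25 (0.43, adjusted p = 0.0466). A second probe was at 8.12, 8.27 and 7.80 at 0 Gy and 7.47, 6.66 and 6.44 at 12 Gy, all 3 below the controls. It fell by 1.21 at 12 Gy (SE 0.32, adjusted p = 0.0147) and by 1.27 on the trend (SE 0.24, adjusted p = 8.36e-04). The third probe had a trend of -0.42 (adjusted p = 0.122). In liver the 3 probes had negative trends over all doses. Within liver slide 1, over 0 to 2 Gy, the slope (log2 over 12 Gy) was 1.47 for the main probe, -2.97 for the second and -0.94 for the third. Within liver slide 2 the slopes of the 3 probes were negative. In lung, the trend of the second probe was lost with the slide as a fixed term (-0.72, adjusted p = 0.937). Its 12 Gy call in lung was lost with the slide as a random block and with both tissues together. That call was also lost without any 1 of 0 Gy mouse 11 and 12 Gy mice 16 and 26. The direction of Lss in irradiated lung therefore depended on the probe, and averaging the 3 probes turned the trend from 0.30 to -0.47 (adjusted p = 0.0116).

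Idi1 was at 12.94, 13.09 and 12.98 in the 0 Gy lungs and at 13.34, 13.29 and 13.44 at 1 Gy, above the controls in 3 of 3 mice, but without passing (0.35, SE 0.17, adjusted p = 0.929). Its trend was -0.39 (SE 0.17, adjusted p = 0.0826), with 12 Gy mice 6 and 26 at 12.70 and 12.96 and the spot of mouse 16 left out as an outlier, and it passed with the scanner software's processed signal (-0.50, adjusted p = 0.0246). Sqle ranged from 12.78 to 13.10 at 0 Gy and from 12.85 to 13.53 at 12 Gy, overlapping groups with a change of 0.16 (adjusted p = 0.554). With the authors' series values the change of Sqle at 12 Gy was 0.45 and passed (adjusted p = 0.0195). Insig1 was lower than the controls in 3 of 3 lungs at 2, 8 and 12 Gy, a description given without the share of all probes that do so. Its controls lay at 10.34, 10.98 and 10.35, the 8 Gy lungs at 10.04, 9.50 and 10.28 and the 12 Gy lungs at 9.97, 10.31 and 9.81, and the trend of -0.49 did not pass (SE 0.20, adjusted p = 0.0742). It passed without 2 Gy mouse 3 (-0.55, adjusted p = 0.0384) or 12 Gy mouse 16 (-0.64, adjusted p = 0.0428). Srebf2 had wide controls, 11.45, 11.04 and 10.40, and its 8 Gy change of -0.44 did not pass (SE 0.22, adjusted p = 0.337).

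**Figure D4:**
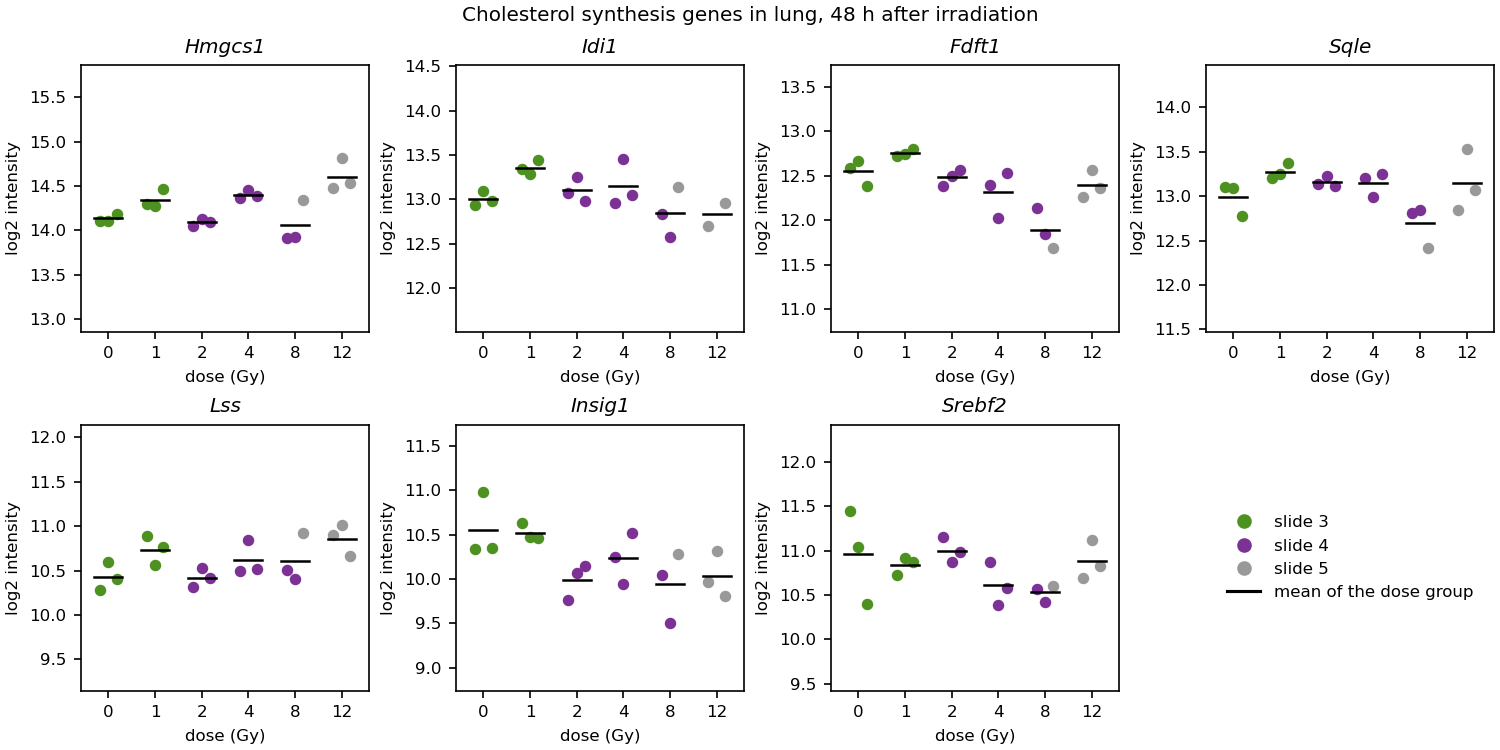
Log2 normalised intensity of each of the 7 genes in the 18 lungs by dose in Gy; each point is a mouse coloured by array slide, and the bars are group means. Hmgcs1 at 12 Gy (14.48 to 14.81) lies above 0 Gy (14.11 to 14.19), and slides change together with dose.

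The lungs did not share the wide spread of the livers. The median SD of the 7 genes in lung lay between 0.0934 and 0.244 over the 6 doses, against 0.154 to 0.285 over all probes. In lung, mouse 5 was the highest for 2 of 10 probes at 8 Gy and mouse 25 for 5 of 10. Among the 5 enzymes in lung the 10 pairs had a median Pearson correlation of 0.396 (-0.100 to 0.799) and a median Spearman correlation of 0.352, and 2 of 10 passed by either coefficient in permutation tests (largest adjusted p = 0.915). With each dose's mean subtracted the median was -0.0988, within slide 3 it was 0.754 and within slide 4 it was 0.518, and without the 2 farthest mice it was 0.161. The 11 pairs with Insig1 or Srebf2 had a median of 0.258, and 2 of 11 passed. The genes most like the members' mean in lung, of 18943 symbols, included Ap5m1 (0.900), Zscan12 (0.864), Krt23 (0.848) and Cd44 (0.832), and of the sterol enzymes 1 of 14, Mvd (0.824), was among the 20 most alike and 4 of 14 were among the 100 most alike.

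The other sterol enzymes in lung moved both ways. At 12 Gy, where 21.4% of all probes passed in either direction, 4 of 14 rose and 0 fell, Pmvk by 1.24 (SE 0.17, adjusted p = 2.26e-04), Hsd17b7 by 0.72, Msmo1 by 0.57 and Ebp by 0.48, and on the trend 3 rose (Pmvk 1.15, Hsd17b7 0.55 and Ebp 0.39) and 2 fell (Fdps -0.68 and Nsdhl -0.55), with a median trend of -0.0030. Pmvk is the kinase that makes mevalonate diphosphate, and Fdps makes the farnesyl unit that Fdft1 uses. Of 14 transport and LXR genes, 4 rose and 3 fell on the trend. Mylip, an LXR target that marks lipoprotein receptors for degradation, rose by 1.09 (adjusted p = 5.98e-05), Abca1, the cholesterol efflux pump, by 0.94 (adjusted p = 0.00132), Npc1 by 0.64 and Nr1h2 by 0.40. Scarb1 fell by 1.39 (adjusted p = 0.00203), Stard4 by 0.98 (adjusted p = 8.37e-04) and Soat1 by 0.49. Of 4 SREBP processing genes, Insig2 rose by 0.35 (adjusted p = 0.0197) and the others did not pass, and of 5 tested bile acid genes Cyp7b1 (0.84) and Nr1h4 (1.08) rose. In all, 10 of 37 pathway genes rose and 5 fell on the lung trend, and 30.7% of all probes passed in either direction. Elovl5 and Fads1 were among the SREBP1 lipogenic genes that rose on this trend, and 2 fell (Me1 and Scd1).

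Cell markers moved with dose in lung. The mean of 8 B cell markers lay between 9.09 and 9.93 at 0 Gy and between 5.82 and 6.13 at 12 Gy, and that of 8 T cell markers between 9.70 and 11.46 and between 7.09 and 7.64. Its part in the members' values was not tested. The hepatocyte markers differed between lungs of the same dose, at 4 Gy with means of 6.81, 6.57 and 12.73 in mice 4, 14 and 24. Hmgcs1 in these 3 lungs was at 14.36, 14.46 and 14.39, and Insig1 at 10.25, 9.95 and 10.52. At 8 Gy the hepatocyte mean was 6.14, 10.07 and 6.70 in mice 5, 15 and 25, and at 12 Gy 9.38, 9.62 and 7.73 in mice 6, 16 and 26. In comparisons of neighbouring doses in lung, 0 of 10 member probes passed between 1 and 2, 2 and 4, 4 and 8, or 8 and 12 Gy. Of all probes, 0.00227%, 0%, 0.0091% and 0.234% passed. Unadjusted p was below 0.05 for 1, 1, 3 and 4 member probes, and for 2757, 2257, 2099 and 8650 of up to 43979 probes.

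The difference of the dose trends between the tissues passed for Hmgcs1 in a model without the slide, and for no other member. In a limma model of the 36 arrays normalized together, the lung trend of Hmgcs1 minus its liver trend was 1.08 (SE 0.37, adjusted p = 0.0433), with 16.5% of 47376 probes passing in either direction. The difference was 0.37 (SE 0.41) for Idi1, 0.41 (SE 0.41) for Sqle, 0.53 (SE 0.30) for Lss, -0.29 (SE 0.31) for Fdft1, -0.20 (SE 0.34) for Insig1 and -0.57 (SE 0.29, adjusted p = 0.181) for Srebf2. The call for Hmgcs1 lay close to the threshold. It was lost with the slide as a fixed term (1.59, SE 0.75, adjusted p = 0.762) or as a random block (1.14, SE 0.43, adjusted p = 0.0870), with the authors' series values (1.04, adjusted p = 0.0581) and when the liver and lung arrays of any 1 of 11 of the 18 sample numbers were left out, with the largest move without number 6 of 12 Gy (0.71, adjusted p = 0.235). Of the 14 sterol enzymes, 3 had a higher trend in lung than in liver (Pmvk 2.00, Sc5d 0.88 and Ebp 0.78) and 0 a lower one, and of the 15 lipogenic genes 7 were higher and 0 lower, with Srebf1 at 1.77 (SE 0.30, adjusted p = 1.44e-04).

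**Figure D5:**
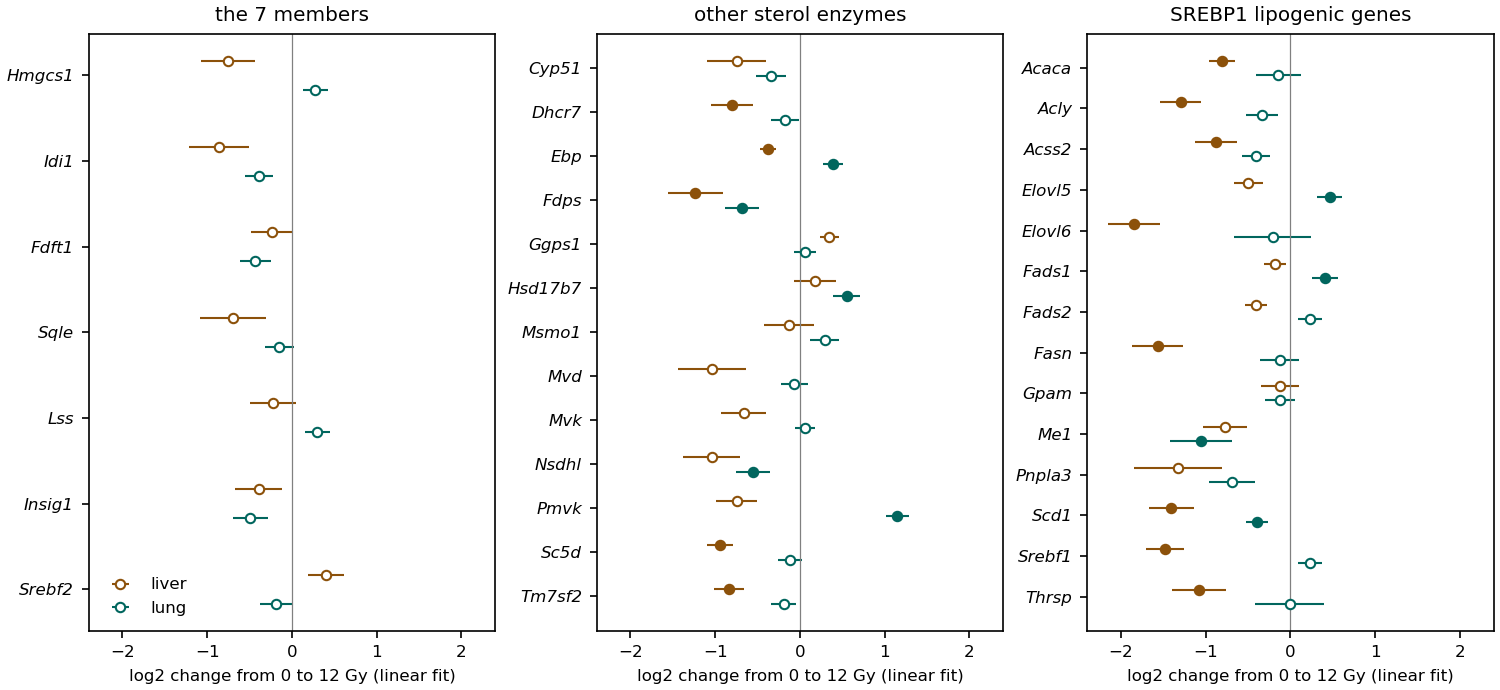
Dose trend (log2 change over 12 Gy, limma) in liver and lung of the members and of 13 other sterol enzymes and 14 SREBP1 lipogenic genes, bars showing the SE and filled points an adjusted p below 0.05. In liver, Fdps (-1.24) and Srebf1 (-1.48) lie well under 0, and Srebf2 (0.40) lies above it in this fit without the slide.

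Srebf2 also hosts a miRNA. The gene spans chr15:82147269-82205379 (GRCm38.p6), and the mature miR-33-5p lies inside it at chr15:82198127-82198147 on the + strand. As background, miR-33 represses sterol efflux genes such as Abca1. Its RefSeq sequence is shown with the seed, bases 2 to 8, in capitals.
mmu-miR-33-5p: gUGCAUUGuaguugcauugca
By the miRNA arrays, the brighter of its probes was well above background on 16 of 18 liver arrays and 18 of 18 lung arrays, and the miR-33-3p probes were not well above background on any array of either tissue. By the brighter probe, the dose trend of miR-33-5p was -0.19 in liver (adjusted p = 0.334) and -0.13 in lung (adjusted p = 0.174). Neither passed, while 14.4% of 390 liver probes and 16.7% of 762 lung probes passed. The liver arrays where this probe was not well above background were those of 12 Gy mice 16 and 26. The other miR-33-5p probe, well above background on 17 of 18 lung arrays and 0 of 18 liver arrays, had a lung trend of 0.08 (adjusted p = 0.708). The liver trend of its host Srebf2 was 0.40 (adjusted p = 0.264). miR-122-5p, the abundant hepatocyte miRNA, stood between 16.78 and 16.96 in the 18 livers, with a trend of -0.03 (adjusted p = 0.630), and between 5.18 and 10.45 in the lungs, highest in 4 Gy mouse 24, the lung with the highest hepatocyte marker mean.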

How the data were processed

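Liver and lung mRNA of 18 mice per tissue was measured on 1-colour arrays from amplified poly(A) RNA. The authors deposited median pixel intensity for each spot and its local background, a background-subtracted processed signal intensity, and series values, which are intensities on a linear scale made by a procedure not given in the sources used here. Intensities came from Agilent Feature Extraction 11.5.1.1. Members and lists were chosen with earlier results of these data known. The main probe was the brightest, every probe of a member was tested, and further pathway genes are named where they passed or were nearest to passing. Some further pathway genes are not reported here.

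Median intensities were corrected with limma 3.58.1 (R 4.3.3) using normexp (offset 0). Control spots were left out, outlier spots set to missing, arrays of a tissue quantile-normalized, and log2 values averaged per probe. Probes well above background (at least 0.5 of spots) on at least 1 array were fitted in a limma model of 6 dose groups, or with dose as a number. Tissue comparisons used 36 arrays normalized together. Symbols came from the RefSeq table of GRCm38.p6. P values rest on the spread between mice of the same group, pooled over all groups in the fit and moderated by limma. For the trend they rest on the scatter around the fitted line over all arrays of the fit. Scripts were tested on simulated data with 200 changed genes. Alternatives changed the background offset to 50, the signal, the normalization, the filter, the probes, the slide terms and the samples left out. Figures used matplotlib 3.10.9.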

Additional observations from a re-analysis of the deposited data

Results flagged for a closer look

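Hmgcs1 was set apart by a difference between the tissues under the same contrast. Its dose trend in lung minus its dose trend in liver was 1.076 on the log2 scale over 12 Gy (SE 0.37, limma adjusted p = 0.0433 over 47376 probes, n = 3 mice per dose and tissue). The liver trend alone was -0.75 and the lung trend alone 0.28, and neither passed by itself. Without number 6 of 12 Gy in both tissues, the difference was 0.71 (adjusted p = 0.235). With the slide as a fixed term the difference was 1.59 (SE 0.75, adjusted p = 0.762) and with it as a random block 1.14 (SE 0.43, adjusted p = 0.0870), and neither passed. The call was also lost when certain other sample numbers were left out in turn, as given above. Groups of 3 were too small to judge a single array against the others of its group.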

How the results depend on the processing

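The calls of single doses in lung depended on the processing. Of 3 member probes that passed at 1 dose or more in lung, 1 of 7 transcripts passed with probes averaged per transcript, and 0 passed with the slide as a random block or with liver and lung normalized and fitted together. On the lung trend, where 1 probe passed, 2 passed with the scanner software's processed signal, 2 with the authors' series values and 0 with the slide as a fixed term. With the slide as a fixed term, the lung contrasts of 2, 4, 8 and 12 Gy with 0 Gy could not be estimated, and 0 probes passed at 1 Gy and between 8 and 12 Gy. Averaging the 3 Lss probes reversed the lung trend of Lss to -0.47. In the tissue difference of the trend, where 1 probe passed, 0 passed with the authors' series values, with the slide as a fixed term or with it as a random block. The slide terms of the comparisons between tissues were chosen after seeing the data. The cause of these moves was not tested, beyond the smaller number of features where probes were averaged.

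Sample numbers shared by liver and lung were checked as a possible pairing. Deviations from the group means correlated between -0.0506 and 0.0519 over 18 numbers, with 0 above 0.1 and 0 arrays best matched with their own number. With the number as a fixed replicate block 0 probes passed on the tissue difference (Hmgcs1 1.08, adjusted p = 0.0558), and with it as a random replicate block 1 passed. Leaving out 1 mouse at a time gave 0 to 2 passing probes in the liver contrasts, 0 to 1 on the liver trend, 0 to 3 in the lung contrasts, 1 to 3 on the lung trend, 0 between 8 and 12 Gy in liver, 0 to 1 in lung, 0 to 1 in the tissue difference and 9 to 10 between the tissues at 0 Gy. The lung contrasts gave 0 without 0 Gy mouse 11, and 1 without 0 Gy mouse 1 or 12 Gy mouse 16. The lung trend gave 2 without 0 Gy mouse 21 or 2 Gy mouse 3, and 3 without 12 Gy mouse 16.

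In liver, the count of members passing was 0 under every other alternative with all mice. Of values of single probes under those alternatives, 234 in liver kept their direction and side of the threshold or moved by less than their SE, and 3 moved. In lung 192 did so, 11 lost a call, 2 gained one, 15 moved and 1 reversed. Between the tissues 104 did so, 4 lost a call and 4 moved. The 3 arrays per dose and the slides limit the precision.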
